A study of Homo sapiens and Mus musculus with 18 samples.

Results

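The respiratory chain and ATP synthase are built from subunits of both genomes of the cell, and their transcripts are described here in L3.6 and PANC-1, human cell lines from pancreatic cancers, with and without K17 (keratin 17, encoded by KRT17), a filament-forming protein of stratified epithelia. Members were human protein-coding genes chosen by symbol: those beginning MT-ND, MT-CO, MT-CYB, MT-ATP, NDUFA, NDUFB, NDUFC, NDUFS, NDUFV, UQCR or ATP5, the COX4 to COX8 subunits, SDHA to SDHD, CYC1 and CYCS, without the NDUFAF assembly factors. Of 105 annotated members 101 had a row among the 34505 human gene rows, 13 of mitochondrial DNA and 88 of nuclear DNA. COX8A, NDUFA1, NDUFA8 and UQCRFS1 were not analysed here. The members include the readthrough rows ATP5MF-PTCD1 and NDUFC2-KCTD14 and the retrocopies ATP5MGL and UQCRHL.

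Each line gave 2 groups of 3 libraries. L3.6 cells, a pancreatic adenosquamous carcinoma line, had KRT17 knocked out with CRISPR-Cas9 or were wild type. PANC-1 cells, a pancreatic ductal adenocarcinoma line, over-expressed K17 (called K17 cells below) or carried an empty vector. All 12 human cultures grew in the same serum-containing medium with no drug named in the labels. The labels do not say whether the knockout or the K17 cells are 1 clone or a pool, or whether replicates came from separate cultures. The p-values therefore reflect the spread of these libraries alone, which may be technical. The 6 libraries of the mouse line KPC were not analysed here. The study as titled concerns K17 located at mitochondria, and the comparisons ask whether the transcripts of the mitochondrial energy machinery differed with K17.

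Complexes I to IV pass electrons to oxygen and, except for complex II, pump protons across the inner mitochondrial membrane. Complex V, the ATP synthase, lets the protons flow back and makes ATP. Mitochondrial DNA is transcribed from both strands into long RNAs that are cut at the tRNAs between genes, and it encodes core subunits of complexes I, III, IV and V, while complex II and all other subunits are nuclear. Nuclear subunit genes are known targets of the transcription factors NRF1, GABP (an ETS factor) and YY1.

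Total counts were 9485257 to 15476629 per L3.6 library and 59671178 to 70789559 per PANC-1 library. KRT17 followed the labels, with 202, 204 and 175 counts in L3.6 knockout and 1654, 1112 and 1420 in wild type, and with 8597, 9884 and 9228 counts in PANC-1 K17 and 2, 0 and 0 in empty vector. In PANC-1, empty vector replicate 2 was unlike the remaining 5, and the PANC-1 comparisons are given with and without this library. In L3.6, wild-type replicate 1 differed more from wild-type replicates 2 and 3 than those differed from each other (chi-square per degree of freedom 35 and 43.8 against 5.1). Epithelial markers (EPCAM, CDH1, KRT7, KRT8, KRT18, KRT19) summed to 3826 to 4131 CPM (counts scaled to library size) in L3.6 knockout and 3221 to 3613 in L3.6 wild type. The sums were 1006 to 1056 in PANC-1 K17 and 927 to 1742 in PANC-1 empty vector. CDH1 was at no more than 3.17 CPM and KRT18 at no more than 26 CPM in any library. KRT7 was at no more than 1.48 CPM in PANC-1. The leukocyte markers CD3E and PTPRC were at 0 and at no more than 1.19 CPM, and the islet gene INS was at 0. CD68 reached 49 CPM in PANC-1, and the endothelial marker PECAM1 was 3.41 to 3.74 CPM in L3.6 knockout and 8.24 to 11.5 CPM in wild type; the part of these in the results was not tested.

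Some rows held few or no reads for genes that every respiring cell uses. NDUFB7, a complex I subunit, had 0 counts in all 12 libraries. ATP5F1B, the catalytic beta subunit of ATP synthase, had 22.4 to 29.1 CPM in L3.6 and 84 to 246 CPM in PANC-1, and CYC1, cytochrome c1 of complex III, 8.8 to 11.3 CPM in L3.6 and 0.614 to 1.78 CPM in PANC-1. A row may therefore hold only a part of a gene's reads, and levels of nuclear members are given per gene, without a comparison between genes or lines. Pseudogene rows named after a member held counts equal to 70.9% of the parent's for NDUFV2 and 48.9% for SDHA. The next largest shares were 10.3% for NDUFB4, 10.2% for MT-ATP6, 8.95% for ATP5PD and 6.76% for NDUFA3, so all of these members are uncertain. These shares pool the 12 libraries and can differ between lines. For MT-ATP6 the pseudogene rows held 15005 counts beside 79740 in L3.6 knockout replicate 1, and 46644 beside 509079 in PANC-1 K17 replicate 1, a larger share in L3.6.

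Neighbouring mitochondrial genes can share bases, which bears on how reads are assigned to rows. MT-ATP8 (chrM:8366-8572, plus strand, GRCh38) shares 46 bases with MT-ATP6, and MT-ND4L (chrM:10470-10766, plus strand) shares 7 with MT-ND4. Both are printed 5′ to 3′ from the GENCODE 29 transcripts with the shared bases in capitals, because both pairs carry results given below.
MT-ATP8: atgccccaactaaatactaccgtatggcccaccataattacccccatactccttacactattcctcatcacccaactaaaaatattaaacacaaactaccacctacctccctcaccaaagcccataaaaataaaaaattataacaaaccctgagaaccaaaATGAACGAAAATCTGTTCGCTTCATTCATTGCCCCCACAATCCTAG
MT-ND4L: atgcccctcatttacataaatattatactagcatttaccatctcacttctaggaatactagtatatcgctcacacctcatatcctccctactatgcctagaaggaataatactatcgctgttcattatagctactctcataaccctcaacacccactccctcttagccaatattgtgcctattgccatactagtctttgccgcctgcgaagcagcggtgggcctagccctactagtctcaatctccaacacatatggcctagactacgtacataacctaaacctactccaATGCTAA
MT-ND5 (chrM:12337-14148) ends 1 base before MT-ND6 (chrM:14149-14673) begins, and MT-ND6 is the 1 protein gene on the minus strand. The strand setting of the counting is not given in the sources used here. Reads of opposite strands therefore cannot be told apart at this junction or elsewhere in MT-ND6.

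The level of each mitochondrial gene was set per kilobase of its length. In L3.6, MT-CO3 had the highest level, 14357 ± 298 CPM per kilobase in knockout and 14539 ± 183 in wild type (SD, n = 3 each), and MT-ND5 the lowest, 3215 ± 82.6 in knockout and 3506 ± 141 in wild type. MT-ATP8 and MT-CO2, next in order in the knockout at 12042 ± 437 and 12020 ± 284 CPM per kilobase, did not differ beyond their spread. MT-ATP8 is 207 bases long, 46 of them shared with MT-ATP6, which had 9151 ± 187 in the knockout. The place of MT-ATP8 in the order therefore rests in part on how reads were assigned to rows. MT-ND5 and MT-ND6 (3353 ± 110) lay close together at the low end. In PANC-1 the order differed at the top. MT-ND4 was highest in K17 cells at 15907 ± 668 CPM per kilobase, within the spread of MT-CO2 at 15638 ± 595, and these were also the 2 highest in empty vector replicates 1 and 3, with means of 14905 for MT-ND4 and 14012 for MT-CO2. MT-ND5 was again the lowest in K17 cells at 4278 ± 150 CPM per kilobase. The 3 core subunits of complex IV stood above every complex I subunit in L3.6 knockout cells, and above every one but MT-ND4 in PANC-1 K17 cells.

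The exact tests on the summed levels of the members could not pass the threshold used for calls, because their smallest possible p was 0.1. They therefore cannot decide whether the sums differed. With all libraries kept, the sums of the groups overlapped in both lines. In L3.6 the 13 mitochondrial members summed to 85684, 89627 and 86816 CPM in knockout and 88783, 85301 and 82695 CPM in wild type. The ranges overlapped, with a log2 difference of 0.03 (two-sided exact permutation test over libraries, p = 0.4, where 0.1 is the smallest p that 3 against 3 allows). The 88 nuclear members summed to 7724, 8177 and 7925 CPM in knockout and 8600, 7681 and 7584 CPM in wild type, with wild-type replicate 1 the highest of the 6 (log2 difference -0.00, exact permutation p = 1). In PANC-1 the mitochondrial members summed to 103962, 107837 and 100641 CPM with K17 and to 100465, 192706 and 98044 CPM with the empty vector. The library with 192706 CPM was empty vector replicate 2, where these 13 genes took 18.8% of all counts, against 9.88% to 10.8% in the other PANC-1 libraries. The log2 difference was -0.25 with it (exact permutation p = 1) and 0.07 without it (p = 0.3, smallest possible 0.1). Beside replicates 1 and 3 alone, the K17 sums were all above the empty vector sums as scaled here, by little for K17 replicate 3. After scaling without replicate 2 they overlapped, at 104102, 108236 and 101253 CPM with K17 and 101474 and 98224 CPM with the empty vector. The nuclear members summed to 6690, 6961 and 6791 CPM with K17 and to 6816, 9421 and 6594 CPM with the empty vector, for a log2 difference of -0.14 with replicate 2 (exact permutation p = 0.8) and 0.02 without it (p = 0.6). In a culture, fewer transcripts per cell and fewer mitochondria per cell cannot be told apart from these sums.

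**Figure D1:**
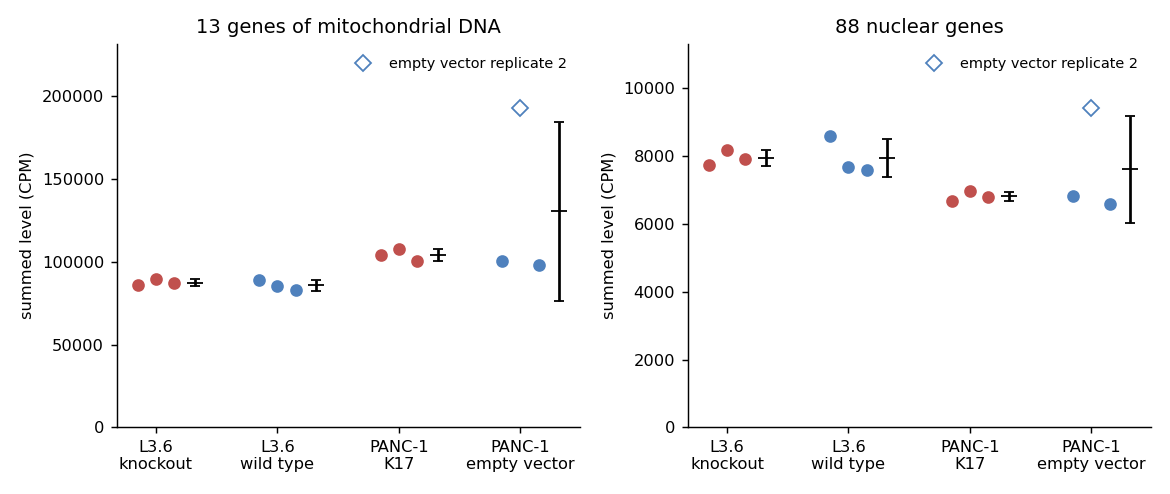
Summed CPM of the 13 mitochondrial members (left) and the 88 nuclear members (right) in each library; points are libraries, the black bar is the mean ± SD of 3, and the open diamond is PANC-1 empty vector replicate 2. The diamond lies at 192706 and 9421 CPM, above the 5 other PANC-1 libraries in both panels, while knockout and wild-type L3.6 libraries overlap.

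In L3.6, KRT17 knockout went with small and opposite changes among complex I subunits of mitochondrial DNA. MT-ND4 and MT-ND4L, which share a transcript, rose, MT-ND1 fell, and the other 10 mitochondrial members did not pass edgeR's test. MT-ND1 had 4643, 4591 and 4772 CPM in knockout and 5911, 5673 and 5225 CPM in wild type, so every knockout library was below every wild-type library (log2 fold change -0.26 ± 0.056 SE, edgeR adjusted p = 0.0242). MT-ND4 had 12512, 13249 and 12150 CPM in knockout and 11216, 10795 and 10288 CPM in wild type (0.23 ± 0.056, edgeR adjusted p = 0.0374). MT-ND4L had 2061, 2124 and 1948 CPM in knockout and 1809, 1718 and 1651 CPM in wild type (0.24 ± 0.055, edgeR adjusted p = 0.029). For both genes the knockout libraries were all above the wild-type ones. The 3 of 13 called stand beside 9.61% of the 13891 genes tested in L3.6. Each of the 3 calls was lost when any single knockout library or wild-type replicate 2 was left out, and those of MT-ND4 and MT-ND4L also without wild-type replicate 3, with the direction kept.

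Among the other mitochondrial members, MT-CYB, cytochrome b of complex III, had 7130, 7888 and 7246 CPM in knockout and 6880, 6632 and 6485 CPM in wild type, with groups that did not overlap (0.15 ± 0.055, edgeR adjusted p = 0.116). MT-ND5 had 5659, 5866 and 5950 CPM in knockout and 6110, 6621 and 6331 CPM in wild type, again without overlap (-0.13 ± 0.050, edgeR adjusted p = 0.15). The remaining 8 had log2 fold changes between -0.13 and 0.08. The core subunits of complex IV were close to 0, at 0.08 for MT-CO1, -0.00 for MT-CO2 and -0.02 for MT-CO3. The median of the 13 was -0.00, against -0.01 over all genes tested.

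Of the 88 nuclear members 81 passed the filter on low counts in L3.6, and 1 of them, ATP5MC1, was called, 1.23% beside the 9.61% of all genes tested. ATP5MC1 (chromosome 17, 48892765 to 48895871, GRCh38) is 1 of 3 genes for subunit c of the ATP synthase rotor ring. It had 102, 113 and 106 CPM in knockout and 151, 129 and 127 CPM in wild type, and fell with no overlap between the groups (log2 fold change -0.34 ± 0.080, edgeR adjusted p = 0.0334). The other 2 genes of the same subunit gave 121, 124 and 113 CPM in knockout and 106, 86.2 and 108 CPM in wild type for ATP5MC2 (0.25 ± 0.090, edgeR adjusted p = 0.121), and 285, 314 and 303 CPM in knockout and 334, 304 and 287 CPM in wild type for ATP5MC3. The call of ATP5MC1 was lost without any single knockout library or without wild-type replicate 2 (edgeR adjusted p from 0.0306 to 0.125 over the 6 fits that leave out a library).

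The 81 nuclear members tested, ATP5MC1 included, lay on both sides of 0, 40 above and 41 below, with a median of -0.01 that equals the median of all genes. With upper-quartile scaling 29 of the 81 were above 0, with medians of -0.06 for these members and for all genes. By complex, medians were -0.03 for the 35 tested members of complex I, 0.02 for the 4 of complex II, -0.04 for the 9 of complex III, 0.02 for the 13 of complex IV and 0.02 for the 19 of complex V. The largest differences at 5 CPM or more, ATP5PO (-0.70, peripheral stalk of ATP synthase), NDUFV2 (-0.64, an iron-sulfur subunit of complex I) and UQCRC1 (-0.60, a core protein of complex III), did not pass edgeR's test (edgeR adjusted p = 0.125, 0.138 and 0.168). The members nearest to the threshold were MT-ND4, just inside, and NDUFS7, just outside at -0.47 (edgeR adjusted p = 0.0768). The members with the most counts in each complex had log2 fold changes of -0.14 for NDUFB5, 0.08 for NDUFS6, 0.08 for SDHA, 0.14 for SDHC, -0.04 for UQCRB, -0.09 for UQCRC2, 0.03 for COX4I1, 0.02 for COX5A, 0.05 for ATP5F1A, -0.03 for ATP5PB and -0.15 for CYCS, the electron carrier cytochrome c, none past the threshold.

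Leaving out wild-type replicate 1 raised the share of called genes to 17.2% of 14463 and the number of called nuclear members to 7 of 82, or 8.54%. ATP5MC1 was still lower in knockout, by a log2 fold change of -0.25. NDUFA4, NDUFB1, NDUFS6, NDUFV1, SDHC and UQCRQ were then higher in knockout. NDUFA4 had 32.7, 30.9 and 36.2 CPM in knockout and 34.6, 20.7 and 26 CPM in wild type, where 34.6 is replicate 1 (0.52 ± 0.13 without it, edgeR adjusted p = 0.0407, and 0.29 ± 0.18 with it). MT-ND1, MT-ND4 and MT-ND4L were also called without that library.

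**Figure D2:**
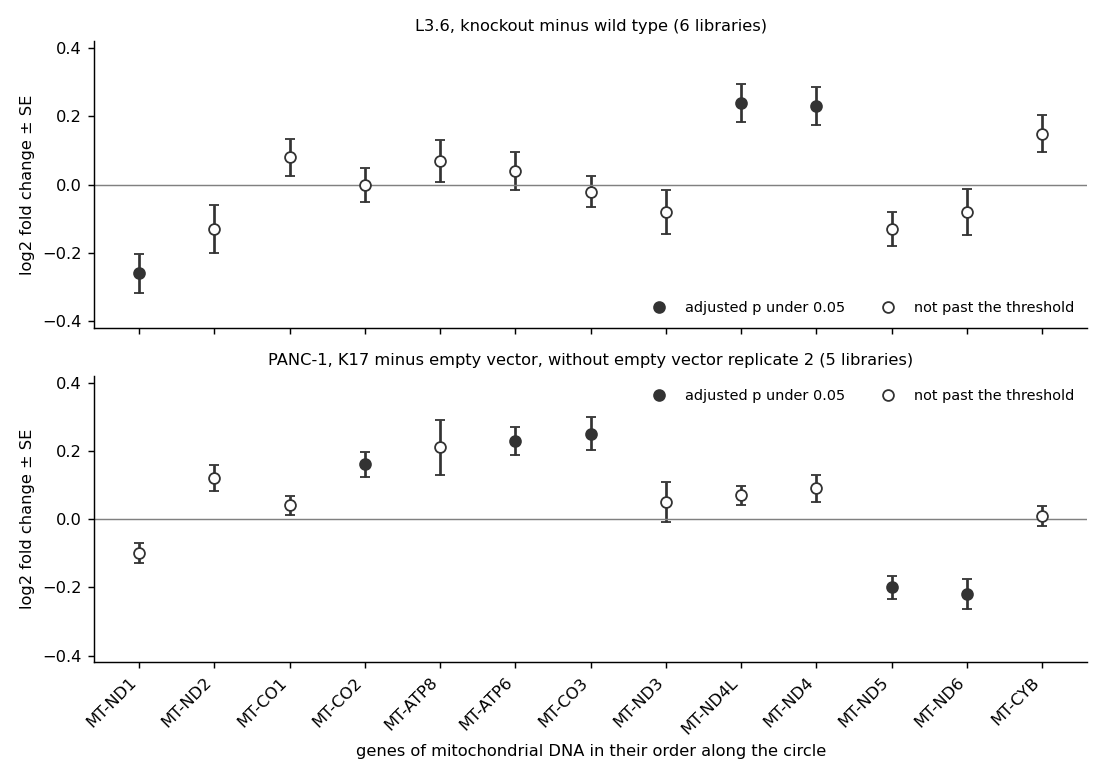
Log2 fold change ± SE of the 13 mitochondrial members in their order on mitochondrial DNA, for L3.6 knockout minus wild type (top) and PANC-1 K17 minus empty vector without empty vector replicate 2 (bottom); filled points passed an edgeR adjusted p of 0.05. MT-ND1 lies lowest in L3.6 at -0.26 with MT-ND4L and MT-ND4 highest, and in PANC-1 MT-CO2, MT-ATP6 and MT-CO3 are filled above 0 and MT-ND5 and MT-ND6 below it.

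In PANC-1 with all 6 libraries, edgeR called none of the 13 mitochondrial members and none of the 83 nuclear members tested, beside 0.644% of 16295 genes. At an unadjusted p under 0.05, edgeR gave 0 mitochondrial and 4 nuclear members, and DESeq2 called 0 mitochondrial members and 1 nuclear member, COX6B2. Among nuclear members at 5 CPM or more, NDUFAB1, the mitochondrial acyl carrier protein, had the largest difference, with 2.47, 4.4 and 4.86 CPM with K17 and 6.45, 46.6 and 5 CPM with the empty vector (log2 fold change -2.31 ± 0.94, edgeR adjusted p = 0.496). NDUFV3, an accessory subunit of complex I, had 105, 113 and 93.8 CPM with K17 and 112, 317 and 76.8 CPM with the empty vector, where 317 is again replicate 2. NDUFB10 was the third of these, at -0.64 (edgeR adjusted p = 0.59). Most members had negative fold changes, 11 of 13 mitochondrial and 72 of 83 nuclear, with medians of -0.38 and -0.26 against 0.01 for all genes. These medians moved with 1 library: without empty vector replicate 2 they were 0.07 and 0.04.

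Empty vector replicate 2 was higher than the mean of empty vector replicates 1 and 3 for 13 of 13 mitochondrial members and 71 of the 79 nuclear members with a mean of at least 1 CPM (89.9%), against 51.2% of 11284 protein-coding genes. The median log2 ratio, with 0.1 CPM added to both levels, was 1.02 for the mitochondrial and 0.75 for the nuclear members, and 0.03 for all protein-coding genes. By complex the nuclear medians were 0.92 (complex I), 0.11 (II), 0.75 (III), 0.81 (IV) and 0.57 (V). The extremes were NDUFAB1 with 46.6 CPM in replicate 2 against 6.45 and 5 in replicates 1 and 3, and SDHD, a membrane anchor of complex II, with 2.16 CPM against 7.12 and 6.51. ATP5F1B had 84 CPM in replicate 2 against 246 and 240, and NDUFS1, the largest iron-sulfur subunit of complex I, 71 CPM against 134 and 132. Among protein-coding genes the ratio also moved with annotated mRNA length, with a median of 0.30 for genes of at most 1000 bases and -0.69 for those over 5000 bases, and the nuclear members are short, with a median of 703 bases against 1813 for all. Across the 79 nuclear members Spearman's rho of ratio and length was -0.24, a description over genes that share 1 set of libraries. These are values of 1 library, and what set it apart was not tested.

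**Figure D3:**
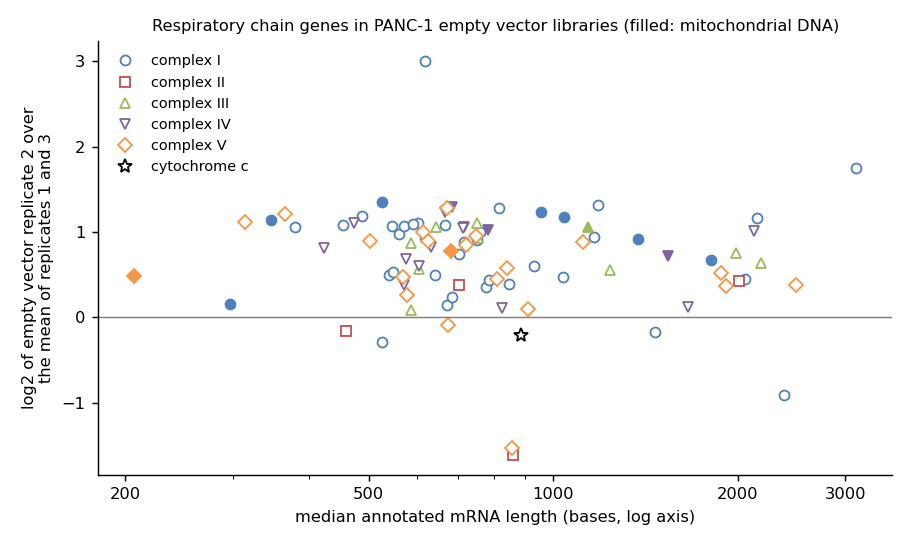
Log2 ratio of PANC-1 empty vector replicate 2 to the mean of empty vector replicates 1 and 3 (vertical) against median annotated mRNA length on a log axis, for each member with at least 1 CPM; symbols mark the complex and filled ones are genes of mitochondrial DNA. Most points lie above 0, with nuclear members from -1.61 (SDHD) to 3.00 (NDUFAB1).

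Without empty vector replicate 2, 5 of 13 mitochondrial members passed. With K17, MT-CO2, MT-ATP6 and MT-CO3 rose, while MT-ND5 and MT-ND6 fell. MT-CO2, which holds a copper center of complex IV, had 10763, 11066 and 10260 CPM with K17 and 9757 and 9411 CPM in empty vector replicates 1 and 3 (log2 fold change 0.16 ± 0.037, edgeR adjusted p = 0.0263), with 23526 CPM in replicate 2. MT-ATP6, part of the proton channel of ATP synthase, had 8258, 8955 and 8288 CPM with K17 and 7329 and 7165 CPM with the empty vector (0.23 ± 0.041, edgeR adjusted p = 0.00889), with 12465 CPM in replicate 2. MT-CO3 had 9824, 9887 and 8976 CPM with K17 and 8235 and 7830 CPM with the empty vector (0.25 ± 0.049, edgeR adjusted p = 0.0157), with 16316 CPM in replicate 2. In these 3 genes the K17 libraries lay above both empty vector libraries and below replicate 2.

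MT-ND5 had 7499, 8038 and 7718 CPM with K17 and 8984 and 8832 CPM in empty vector replicates 1 and 3 (-0.20 ± 0.034, edgeR adjusted p = 0.00629). MT-ND6 had 2664, 2911 and 2738 CPM with K17 and 3286 and 3150 CPM with the empty vector (-0.22 ± 0.043, edgeR adjusted p = 0.0137). Replicate 2 was further from the K17 libraries in the same direction, at 14135 and 8223 CPM, so the K17 libraries were the lowest of the 6 for both genes. MT-ND1 was also lowest with K17, at 6010, 6026 and 5729 CPM against 6367 and 6269 CPM, and lay just outside the threshold (-0.10 ± 0.029, edgeR adjusted p = 0.0593). With all 6 libraries the log2 fold changes of the 5 were -0.41 for MT-CO2, -0.08 for MT-ATP6, -0.17 for MT-CO3, -0.46 for MT-ND5 and -0.82 for MT-ND6, none called, so the direction of the first 3 turned with replicate 2. The 5 called mitochondrial members are 38.5% of 13, and with the 12 nuclear ones the called members are 17.9% of the 95 tested, beside 20.7% of 16640 genes.

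**Figure D4:**
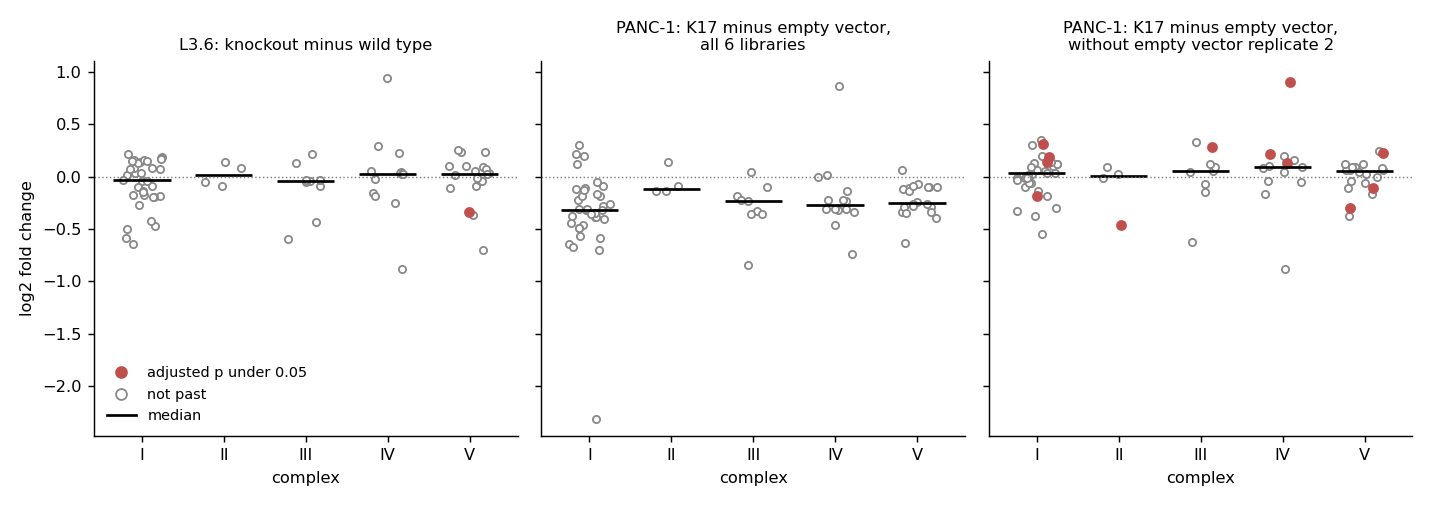
Log2 fold changes of the nuclear members by complex (CYCS is not drawn) in L3.6, in PANC-1 with all 6 libraries and in PANC-1 without empty vector replicate 2; red points passed an edgeR adjusted p of 0.05 and bars are medians. The PANC-1 medians lie below 0 in the middle panel, from -0.32 to -0.11, and between 0.00 and 0.09 in the right one.

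Of 82 nuclear members tested without that library 12 passed, 8 higher and 4 lower with K17, or 14.6% beside the 20.7% of all genes. They came from every complex, 4 of complex I, 1 of II, 1 of III, 3 of IV and 3 of V. With upper-quartile scaling 10 passed, 3 higher and 7 lower, and the calls of COX4I1 (edgeR adjusted p = 0.103), COX5B (0.0825), NDUFB1 (0.0738), NDUFA5 (0.0516) and UQCR10 (0.0506) ended. At the same time the split over all genes turned from 1902 higher and 1540 lower to 1549 higher and 2193 lower, so the balance of directions rests on the scaling. The median of the nuclear members was 0.04, and -0.01 with upper-quartile scaling. Of the mitochondrial members 5 passed under both, 3 higher in the one and 2 higher in the other, where MT-CO2 was lost. With the scaling factors of RLE, 12 nuclear members passed, 8 of them higher.

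Members that were lower with K17 had roles in complexes I, II and V. ATP5F1B (chromosome 12, 56638175 to 56646068, GRCh38) had 204, 191 and 200 CPM with K17 and 246 and 240 CPM in empty vector replicates 1 and 3 (-0.30 ± 0.035, edgeR adjusted p = 0.00138). SDHD (chromosome 11, 112086773 to 112120013) had 4.48, 5.61 and 4.78 CPM with K17 and 7.12 and 6.51 CPM with the empty vector, just inside the threshold (-0.46 ± 0.13, edgeR adjusted p = 0.0498). With the counts of its pseudogene rows added, the SDHD call ended (edgeR adjusted p = 0.0581). For both genes, replicate 2 lay on the other side of the K17 libraries, at 84 and 2.16 CPM, and with all 6 libraries the log2 fold changes were 0.06 for ATP5F1B and -0.09 for SDHD. NDUFB10, an accessory subunit of complex I, had 45.7, 50 and 48.8 CPM with K17 and 55.7 and 53.9 CPM with the empty vector (-0.19 ± 0.051, edgeR adjusted p = 0.0418). ATP5PB, of the peripheral stalk of ATP synthase, had 248, 252 and 253 CPM with K17 and 272 and 268 CPM with the empty vector (-0.11 ± 0.026, edgeR adjusted p = 0.0286). For NDUFB10 and ATP5PB the K17 libraries were below all 3 empty vector libraries, replicate 2 being at 116 and 349 CPM.

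Members that were higher with K17 included 3 subunits of complex IV, of which COX6B2 also passed with upper-quartile scaling. COX6B2, an isoform of subunit 6B known from testis, had 4.43, 4.54 and 3.89 CPM with K17 and 2.26, 2.51 and 2.34 CPM with the empty vector, replicate 2 included, so the groups did not overlap. Its log2 fold change was 0.90 ± 0.14 without replicate 2 (edgeR adjusted p = 0.00426) and 0.86 ± 0.15 with it (edgeR adjusted p = 0.0911). The widely expressed isoform COX6B1 had 2.45, 3.13 and 3.07 CPM with K17 and 2.5, 5.65 and 2.65 CPM with the empty vector. Levels of these isoforms are not compared with each other, because a row may hold only a part of a gene's reads. COX4I1, the common isoform of subunit 4, had 170, 174 and 175 CPM with K17 and 160 and 156 CPM in empty vector replicates 1 and 3 (0.13 ± 0.031, edgeR adjusted p = 0.028). COX5B had 64.9, 71.7 and 68.6 CPM with K17 and 61.1 and 57.2 CPM with the empty vector (0.21 ± 0.056, edgeR adjusted p = 0.0426). In COX4I1 and COX5B replicate 2 was above all K17 libraries, at 329 and 123 CPM, and their log2 fold changes with all 6 libraries were -0.31 and -0.23, so the direction turned with it.

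The other 5 that rose were complex I subunits NDUFA2, NDUFA5 and NDUFB1, the small complex III subunit UQCR10, and ATP5MC1. NDUFA5 had 186, 184 and 185 CPM with K17 and 167, 148 and 168 CPM with the empty vector, and like COX6B2 it did not overlap even with replicate 2 kept (0.14 ± 0.025 without it, edgeR adjusted p = 0.0102). NDUFA2 had 27.1, 26.9 and 29.2 CPM with K17 and 22.9, 41.3 and 21.7 CPM with the empty vector, the 41.3 being replicate 2 (without it 0.31 ± 0.066, edgeR adjusted p = 0.0169). ATP5MC1 had 73.3, 75.5 and 72.7 CPM with K17 and 65.9 and 60.9 CPM with the empty vector (0.22 ± 0.047, edgeR adjusted p = 0.0187), with 118 CPM in replicate 2. ATP5MC1 was therefore lower in L3.6 knockout and, without replicate 2, higher in PANC-1 with K17, the same direction with regard to K17. COX6B2 (-0.88, edgeR adjusted p = 0.195) and NDUFA5 (-0.18, edgeR adjusted p = 0.152) were also lower in L3.6 knockout without overlap, but not past the threshold. COX6B2 reached no more than 1.63 CPM in L3.6. Among nuclear members, 27 of 80 had the same direction in both lines without replicate 2. NDUFB1 (0.19 ± 0.048, edgeR adjusted p = 0.0302) and UQCR10 (0.28 ± 0.068, edgeR adjusted p = 0.0303) had K17 libraries above empty vector replicates 1 and 3 and below replicate 2, which had 109 CPM of NDUFB1 and 59.6 CPM of UQCR10. With all 6 libraries the log2 fold changes were -0.05 for NDUFA2, -0.26 for NDUFB1, -0.19 for UQCR10 and -0.14 for ATP5MC1, the opposite direction, and 0.20 for NDUFA5, none called. The largest differences that did not pass at 5 CPM or more were those of NDUFV2 (0.35, edgeR adjusted p = 0.189), UQCRC1 (0.33, edgeR adjusted p = 0.0515, just outside the threshold) and NDUFB8 (-0.33, edgeR adjusted p = 0.0957).

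**Figure D5:**
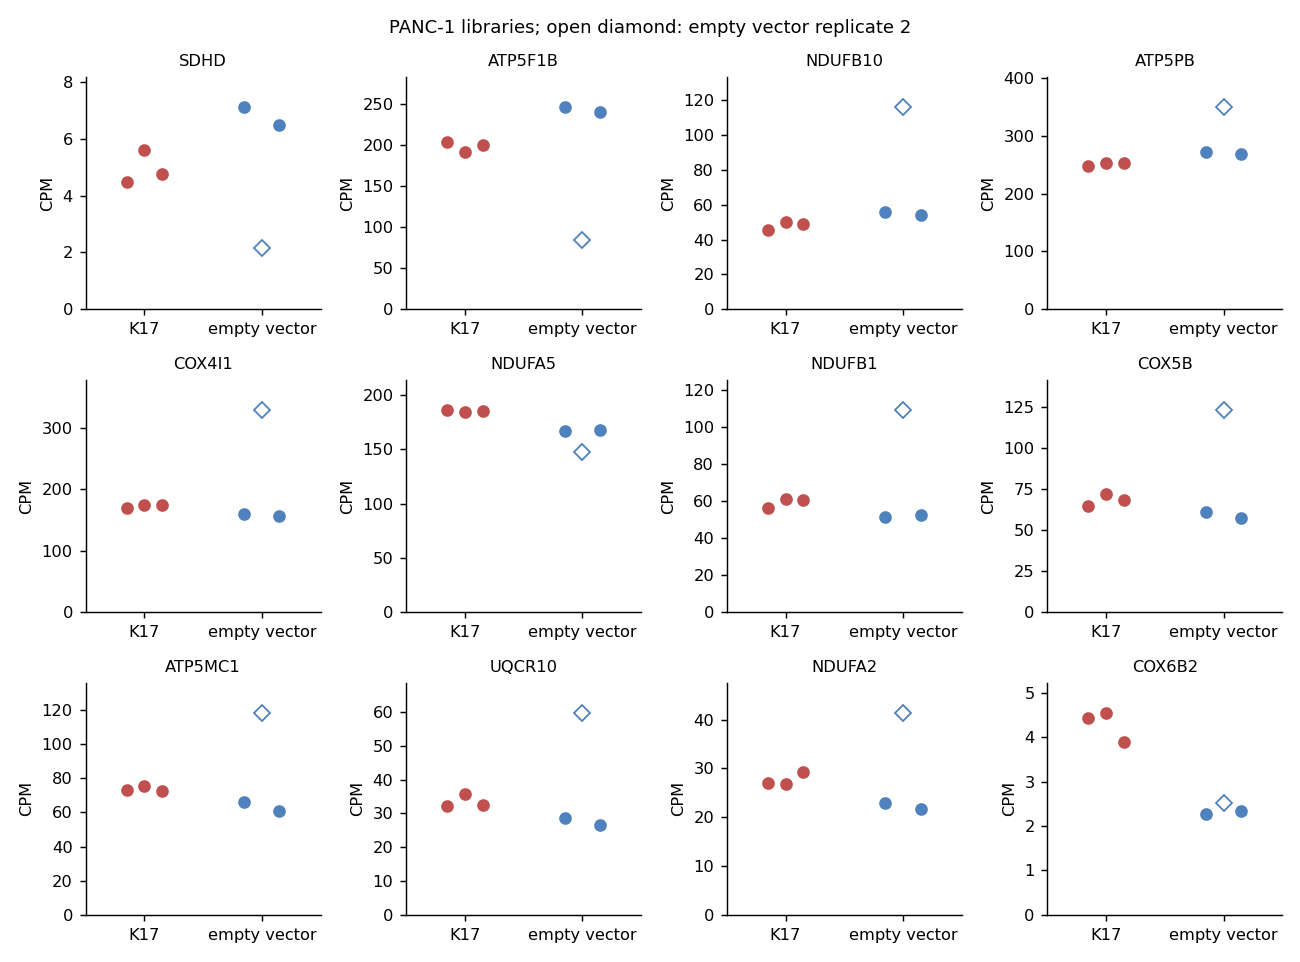
CPM of the 12 nuclear members called in PANC-1 without empty vector replicate 2, ordered by fold change, in the K17 libraries (left in each panel) and the empty vector libraries (right); the open diamond is empty vector replicate 2, and each axis starts at 0. In COX6B2 and NDUFA5 the diamond lies on the same side of the K17 libraries as the other empty vector libraries, with COX6B2 at 3.89 to 4.54 CPM with K17 and 2.26 to 2.51 CPM with the empty vector.

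Of the isoforms known from a few tissues, COX4I2, COX6A2, COX7B2 and COX8C reached no more than 0.103 CPM in any library and passed no filter. COX7A1, the isoform of striated muscle, had at most 0.759 CPM in any library. COX7A2, the widely expressed isoform, had 148, 158 and 151 CPM in L3.6 knockout and 161, 131 and 153 CPM in wild type. NDUFA4L2, known as induced by hypoxia, had 1.39, 3.6 and 2.17 CPM in L3.6 knockout and 0.637, 0.542 and 2.54 CPM in wild type, with overlapping groups. In PANC-1 it had no more than 0.235 CPM in any library. COX7A2L, a factor of respiratory supercomplexes, had 47.1, 38.8 and 38.4 CPM in L3.6 knockout and 48.3, 51.4 and 48.3 CPM in wild type, below in each knockout library but not past the threshold (-0.25 ± 0.096, edgeR adjusted p = 0.136). COX7B overlapped between groups in both lines.

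The difference of the K17 effects between the lines was taken as L3.6 wild type minus knockout, less PANC-1 K17 minus empty vector. With all 12 libraries edgeR called 0 of 96 members tested, with 11 at an unadjusted p under 0.05, beside 1.54% of 17583 genes. Without empty vector replicate 2 it called 5, or 5.21%, beside 11.5% of 15758 genes. MT-ND4 (-0.40 ± 0.11, edgeR adjusted p = 0.0444), MT-ND4L (-0.39 ± 0.10, edgeR adjusted p = 0.0348), NDUFA2 (-0.47 ± 0.12, edgeR adjusted p = 0.0278) and NDUFB1 (-0.48 ± 0.13, edgeR adjusted p = 0.032) had positive fold changes in both L3.6 knockout and PANC-1 K17 cells, in part below the threshold within a line. ATP5PO (1.00 ± 0.27, edgeR adjusted p = 0.0368) had 4.79, 2.95 and 4.34 CPM in L3.6 knockout and 5.35, 7.59 and 6.77 CPM in wild type, and 3.58, 3.6 and 3.51 CPM in PANC-1 K17 and 4.87, 4.35 and 4.36 CPM with the empty vector. ATP5PO was thus lowest in the knockout of one line and in the K17 cells of the other, without overlap in either. It passed edgeR's test within neither line (edgeR adjusted p = 0.125 in L3.6 and 0.507 in PANC-1). In PANC-1 without empty vector replicate 2 its edgeR adjusted p was 0.07. Fold changes had the same sign with regard to K17 in L3.6 and in PANC-1 without that library for 4 of 13 mitochondrial and 27 of 80 nuclear members (33.8%), against 50.2% of 13316 genes. With all PANC-1 libraries these were 4 of 13 and 45 of 81 (55.6%), against 52.7% of 13258 genes, so the nuclear share turned with replicate 2.

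The genes that build and regulate the chain were counted from lists, none of which held a gene called by edgeR in PANC-1 with all 6 libraries, where 2 assembly factors, 1 gene for the expression of mitochondrial DNA, 2 regulators and 0 electron donors had an unadjusted p under 0.05. Of 47 assembly factors tested in L3.6, 4 passed (8.51%, beside 9.61% of all genes), 2 higher and 2 lower in knockout, with a median of 0.06. TTC19, which serves complex III, had 84.9, 90.9 and 87.9 CPM in knockout and 64.7, 60.6 and 54.9 CPM in wild type (0.55, edgeR adjusted p = 0.00325), and SCO1, a copper chaperone of complex IV, rose by 0.67 (edgeR adjusted p = 0.00569), while UQCC1 (-0.59) and COX11 (-0.28) fell. Of 49 tested in PANC-1 without empty vector replicate 2, 6 passed (12.2%, beside 20.7% of all genes), 5 higher and 1 lower with K17, with a median of -0.01. TTC19 was among them, at 78.1, 76.6 and 74.3 CPM with K17 and 63.9 and 65.5 CPM with the empty vector (0.24, edgeR adjusted p = 0.00454), so it was higher in knockout and higher with K17, and the difference of the K17 effects was -0.86 with all libraries (edgeR adjusted p = 0.016).

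Among 27 tested genes for the expression of mitochondrial DNA, 3 passed in L3.6 (11.1%, beside 9.61% of all genes) and 8 in PANC-1 without that library (29.6%, beside 20.7%), 2 higher and 6 lower with K17, with medians of -0.02 and -0.05. TFAM, which packages mitochondrial DNA and starts its transcription, had 88.8, 86.4 and 80.3 CPM with K17 and 101 and 102 CPM in empty vector replicates 1 and 3 (-0.26, edgeR adjusted p = 0.00745), with 17.6 CPM in replicate 2 and a log2 fold change of 0.21 with all 6 libraries. TFAM in L3.6 had a log2 fold change of 0.26 (edgeR adjusted p = 0.119). SLIRP, which stabilizes mitochondrial mRNA with LRPPRC, was lower in knockout (-0.39, edgeR adjusted p = 0.0176) and lower with K17 (-0.25, edgeR adjusted p = 0.0091). ELAC2, the enzyme that cuts the 3′ ends of mitochondrial tRNAs, rose in knockout by 0.40 (edgeR adjusted p = 0.00468) and fell with K17 by 0.21 on the log2 scale (edgeR adjusted p = 0.0124).

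Among regulators of nuclear subunit genes, 2 of 9 tested passed in L3.6 (22.2%, beside 9.61% of all genes) and 3 of 10 in PANC-1 without replicate 2 (30%, beside 20.7%). In L3.6 the coactivator PPARGC1B fell in knockout, with 15.9, 15.5 and 13.8 CPM against 22.2, 27.2 and 26.2 CPM in wild type (-0.74, edgeR adjusted p = 0.0092), and GABPB1, a subunit of GABP, rose (0.41, edgeR adjusted p = 0.00471). In PANC-1 GABPA (-0.22, edgeR adjusted p = 0.00206) and YY1 (-0.34, edgeR adjusted p = 0.00224) fell with K17 and PERM1 rose (0.81, edgeR adjusted p = 0.0125), against 0.13, -0.09 and 0.05 with all 6 libraries. The log2 fold change of NRF1 was 0.27 in L3.6, and in PANC-1 it was -0.19 without replicate 2, neither past the threshold. Of the other enzymes that feed electrons to ubiquinone 0 of 6 passed in L3.6 and 0 of 7 in PANC-1, with 3 and 0 at an unadjusted p under 0.05 in edgeR, and DESeq2 values were taken for the members alone.

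Promoters in the RefSeq table (GRCh38.p14, 250 bases before to 50 after a start site) were matched by symbol for 68 of the 88 nuclear members, 81 sequences in all. They were searched on both strands for core letters of NRF1 (GCGCATGC), ETS factors (CCGGAAGT) and YY1 (AAGATGGC), and matches of different motifs did not overlap. At least 1 was present in 30 of 68 members (44.1%), against 18.9% of the 11452 tested genes with a promoter and 11.2% of all 27305 genes in the table. The NRF1 letters were in 20.6% of the members and 5.97% of the tested genes, the ETS letters in 16.2% and 9.02%, and the YY1 letters in 17.6% and 5.84%. SDHD and COX5B are shown because both hold NRF1 and ETS letters, in capitals here, while SDHD was lower and COX5B higher with K17 in PANC-1 without empty vector replicate 2. The SDHD promoter is chr11:112086623-112086922 and that of COX5B chr2:97645812-97646111, both on the plus strand.
SDHD: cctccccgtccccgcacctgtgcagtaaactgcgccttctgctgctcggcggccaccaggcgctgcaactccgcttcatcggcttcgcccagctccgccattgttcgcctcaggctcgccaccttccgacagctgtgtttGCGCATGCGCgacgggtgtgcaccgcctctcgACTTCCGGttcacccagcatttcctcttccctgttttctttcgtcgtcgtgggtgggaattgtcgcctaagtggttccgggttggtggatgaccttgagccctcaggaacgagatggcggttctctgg
COX5B: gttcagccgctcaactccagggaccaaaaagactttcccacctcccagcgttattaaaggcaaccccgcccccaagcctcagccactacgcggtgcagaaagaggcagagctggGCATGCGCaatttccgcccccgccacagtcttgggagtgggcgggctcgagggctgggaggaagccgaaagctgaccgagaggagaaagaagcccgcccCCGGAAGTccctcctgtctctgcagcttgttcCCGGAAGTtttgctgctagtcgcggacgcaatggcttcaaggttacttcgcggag
In SDHD the NRF1 letters occur on both strands in 1 stretch of overlapping matches, and in COX5B the ETS letters occur 2 times. A match of letters is a description of the sequence and not a measured site.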

How the data were processed

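RNA of the cultures was extracted with TRIzol and made into TruSeq RNA libraries, per the labels' protocols. The authors deposited whole-number counts per gene for each sample, with no normalization. Per the submitters' processing notes, the builds were GRCh38 and GRCm38 and the tools included kallisto 0.46.2, STAR 2.7.3a and bcl2fastq 1.8.4. The program behind the counts, its annotation, its strand setting and its handling of multi-mapping reads were not given in the sources used here. Symbols came from a gene name table, and gene type, coordinates and lengths from GENCODE 29.

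The 2 human lines were fitted separately by edgeR's quasi-likelihood test (version 4.0.16, R 4.3.3; robust glmQLFit, glmQLFTest, filterByExpr and TMM factors), and the difference between lines as an interaction over the 12 human libraries. P-values were adjusted by Benjamini-Hochberg over all genes tested, and 0.05 was the threshold. CPM were computed from library sizes after TMM within a line. Sums over members were compared with two-sided exact permutation tests over libraries. Library totals, between 9485257 and 70789559 counts, set the counting error of low members. Alternatives were RLE and upper-quartile factors, totals without genes of mitochondrial DNA, no filter or a filter of 1 CPM in 3 libraries, DESeq2 1.42.0, a block for the replicate number, and leaving out each library in turn. Adding the counts of pseudogene rows, and combining the fit without empty vector replicate 2 with other settings, were chosen after seeing the data. The scripts were tested on simulated data.

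Members, gene lists and motifs were chosen with earlier results of these data known. Members named are the 13 of mitochondrial DNA, the called nuclear members of a line (the 10 of largest fold change where over 10; ATP5PB and COX4I1 came in as abundant members), the 3 of largest fold change at 5 CPM or more, the 2 most abundant of each complex and isoform sets; genes of the other lists and the extremes of empty vector replicate 2 were chosen after their values were seen. Mitochondrial rRNA had no row used here.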

Additional observations from a re-analysis of the deposited data

Results flagged for a closer look

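The K17 effect, as wild type minus knockout in L3.6 less K17 minus empty vector in PANC-1, differed between the lines for 5 members in the edgeR fit without PANC-1 empty vector replicate 2. The differences on the log2 scale were -0.47 for NDUFA2, -0.48 for NDUFB1, -0.40 for MT-ND4, -0.39 for MT-ND4L and 1.00 for ATP5PO. With all 12 libraries they were 0.02 for NDUFA2, 0.11 for NDUFB1, 0.11 for MT-ND4, -0.23 for MT-ND4L and 1.08 for ATP5PO, none past the threshold (edgeR adjusted p from 0.121 for ATP5PO to 0.998 for NDUFA2). Rows may hold different parts of a gene's reads in the 2 lines; the part of this in the differences was not tested.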

How the results depend on the processing

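Leaving out 1 library moved most results. In L3.6 the count of called mitochondrial members ranged from 0 to 3 and that of nuclear members from 0 to 7, the 7 without wild-type replicate 1; in PANC-1 they ranged from 0 to 5 and from 0 to 12, and members called for the difference between lines from 0 to 5, each maximum without PANC-1 empty vector replicate 2. The log2 difference of the summed mitochondrial members ranged from 0.01 to 0.07 in L3.6 and from -0.42 to 0.07 in PANC-1, and that of the nuclear members from -0.03 to 0.07 and from -0.23 to 0.02. In PANC-1 the log2 fold change ranged from -0.63 to 0.16 for MT-CO2, -0.22 to 0.23 for MT-ATP6, -0.36 to 0.25 for MT-CO3, -0.49 to 0.13 for COX4I1, -0.31 to 0.22 for ATP5MC1, -0.21 to 0.31 for NDUFA2, -0.39 to 0.28 for UQCR10, -0.42 to 0.21 for COX5B and -0.45 to 0.19 for NDUFB1, the positive value without empty vector replicate 2, and from -0.30 without it to 0.29 for ATP5F1B.

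With upper-quartile factors the summed mitochondrial members in L3.6 differed by -0.02, and as a share of raw totals the nuclear ones by 0.03. Upper-quartile factors also moved the split of all called genes in L3.6 from 847 higher and 488 lower to 706 higher and 639 lower, while the 4 called members kept their directions. DESeq2 called 1 nuclear member in PANC-1 with all libraries, COX6B2, beside 3.66% of all genes. In L3.6 it called 4 mitochondrial members and 1 nuclear member, beside 15.4% of all genes. Without empty vector replicate 2 it called 7 mitochondrial and 15 nuclear members in PANC-1, beside 28.2% of all genes. MT-ND4 was not called in L3.6 with RLE factors and MT-ND1 not without a filter.

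Pairing by replicate number was examined on each library's deviations from its group mean of log CPM. Same-numbered libraries of the groups of a line correlated between -0.121 and 0.0863 in these deviations, and differently numbered ones between -0.0905 and 0.123. These values gave no sign of pairing by number. With the replicate number as a block, 0 mitochondrial and 0 nuclear members were called in L3.6. In PANC-1 without empty vector replicate 2, 6 mitochondrial and 3 nuclear ones were called. The nuclear calls lost were those of ATP5PB, COX4I1, NDUFA2, COX5B, NDUFB10, ATP5MC1, NDUFB1, UQCR10 and SDHD (edgeR adjusted p from 0.0648 to 0.155). In that PANC-1 fit K17 replicate 2 was alone in its block and added nothing to the K17 effect. The effect then rested on 2 libraries of each group. The log2 differences of the sums, 0.03 and -0.00 in L3.6 and -0.25 and -0.14 in PANC-1, cannot change with the block. With 3 libraries in each group the mean paired difference equals the difference of the group means, so the block is no check on them. Of 531 values of named members in L3.6 under all alternatives 0 turned direction with a call, and 29 had another sign with neither past the threshold; in PANC-1 these were 10 and 49 of 669. Without empty vector replicate 2, 282 values gave 16 lost and 6 gained calls and 0 turned. Over all genes, the block gave 665 calls in L3.6, 0 in PANC-1 with all libraries (1262 at an unadjusted p under 0.05, and 595 calls by DESeq2 without a block), 2252 without empty vector replicate 2 and 70 for the difference between lines; leaving out a library gave 574 to 2493 calls in L3.6, 0 to 3442 in PANC-1 and 138 to 1819 for the difference. The cause of these changes was not tested. The fit without empty vector replicate 2 rests on 2 empty vector libraries, and its calls were not tested by leaving out a further library.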
